A study of Homo sapiens with 480 samples.

Results

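Human fibroblasts at day 16 of reprogramming were sorted on TRA-1-60, a carbohydrate epitope of pluripotent cells that is carried by the surface protein podocalyxin, and the transcriptomes of single positive cells were compared with those of single negative cells across all genes. The cells descend from BJ, an established line of human neonatal fibroblasts, and both fractions had carried OCT4, SOX2, KLF4 and MYC on viruses whose expression was induced 16 days before. The series holds 480 single cells in 5 groups of 96; the other 3 groups are BJ itself and cells of day 2 and day 8. Of the 192 day 16 cells, 180 were kept because they held at least 2000 genes at a value of 1 or more: 95 of 96 positive and 85 of 96 negative cells. Values are FPKM (fragments scaled to transcript length and library size), rescaled so that each cell sums to 1000000, and every level below is on that scale. A gene with a value of 1 or more in a cell is called detected there. Where a pair of values carries no label, the positive fraction comes first.

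Reprogramming with these 4 factors takes a fibroblast through loss of its matrix-producing programme, a rise in proliferation and a passage to epithelial character before the pluripotency network becomes self-sustaining. Only a minority of cells reach the last step, and TRA-1-60 is commonly used to enrich for them. In human pluripotent cells that network depends on Nodal and FGF signals, and the cells divide with a short G1 phase.

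Each fraction is 1 sample. No label names a separate culture, infection, sort or chip, so cells are not replicates of a condition, and no test, p-value or standard error is given; the fraction, its culture and its table of values cannot be told apart. The comparison rests on the log2 ratio of the mean over positive cells plus 1 to the mean over negative cells plus 1, which understates the ratio of low genes. It also rests on the share of cells with the gene, with exact Clopper-Pearson 95% intervals that cover the counting of cells only, and on the share of all pairs of 1 positive and 1 negative cell in which the positive cell is higher, with ties shared equally. A gene is called higher or lower when its ratio is at least 2-fold and the difference of mean log2(value + 1) has the same sign. The depth behind each value is unknown, since FPKM keeps none.

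The libraries of the fractions differed in ways that touch every value. Kept positive cells held 2759 to 8794 genes (median 5869) and kept negative cells 3646 to 7362 (median 5871), and 32 positive cells (33.7%) but 3 negative cells (3.53%) held under 4000. RNR1 and RNR2, symbols that RefSeq gives to the mitochondrial ribosomal RNAs, together took 0.127% to 74.6% of a positive cell's total (median 4.79%) and 0.805% to 6.10% of a negative cell's (median 1.90%), and they passed 10% in 20 positive and 0 negative cells. In the positive cells under 4000 genes their median share was 13.5%, and 4.20% in the others. The deposited FPKM of 5 positive cells summed to over 2000000, up to 1.5501e+07, against at most 808386 in negative cells. No 2 of the 480 columns held identical values. The part of these features in the results was not tested beyond the recounts given beside them.

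The marker lists went with the labels, while PODXL, which encodes podocalyxin, overlapped between the fractions. It had a mean of 130 (median 64.7) in positive and 54.9 (median 41.8) in negative cells, was detected in 95.8% and 81.2% of them, and was higher in the positive cell in 63.7% of pairs. Of 29 genes of the pluripotency network, positive cells had 9 to 26 detected (median 16) and negative cells 0 to 8 (median 2). Of 34 fibroblast genes, positive cells had 6 to 25 (median 12) and negative cells 23 to 34 (median 30). More pluripotency than fibroblast genes were detected in 79 of 95 positive and in 0 of 85 negative cells. SOX2, a delivered factor whose viral and endogenous transcripts share 1 value here, ranged from 1.52 over a median of 120 to 652 in positive cells and from 0 over 29.8 to 156 in negative cells. The delivered factor MYC went the other way, with a median of 14.5 in positive cells (range 0 to 1183) and of 297 in negative cells (range 0 to 1086), and means of 75.1 and 334. Its log2 ratio of -2.14 became -0.17 on the FPKM as deposited. KLF4 was low in both fractions, with means of 15.3 and 20.8.

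Across all genes the fractions differed widely and nearly symmetrically. Of 27021 genes, 14060 averaged 1 or more in either fraction; 3480 of these (24.8%) were called higher and 3008 (21.4%) lower in positive cells. The median log2 ratio over measured genes was 0.06, with a 5th percentile of -2.50 and a 95th of 2.83. At least 8-fold separated the means of 611 higher and 458 lower genes, and at least 32-fold those of 113 and 71. Genes called higher took 33.4% of the mean total of a positive cell and 7.23% of that of a negative cell, while genes called lower took 7.01% and 32.8%.

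The balance of the 2 directions depended on how a cell's extreme values were weighed. Higher genes were 53.6% of all calls by the ratio of means, but 31.03% (1281 higher, 2847 lower) by the difference of mean log2(value + 1) and 35.9% (1982 higher, 3542 lower) when the top and bottom 5% of cells were left out of each gene's mean. By the former measure the genes CDH2, CTSC, HMGN1, HMGN3, PRDX1, VCAN, RB1 and CER1, named as called below, fell under 2-fold (0.93, 0.79, 0.53, 0.91, 0.87, 0.58, -0.97 and 0.84). Positive cells gave more genes whose level came from few cells: in 875 of the genes called higher (25.1%) 1 cell supplied over 50% of the summed level, against 231 of the genes called lower (7.68%). Conversely, the share of cells with the gene lay at least 25 points apart, with the same sign as the call, for 28.02% of higher and 41.8% of lower genes. Among genes held by most cells of one fraction and few of the other (at least 75% against at most 25% of cells), 80 were held by positive and 129 by negative cells. With only cells of 4000 or more genes (63 positive, 82 negative), 173 genes were held by positive cells in this way.

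**Figure D1:**
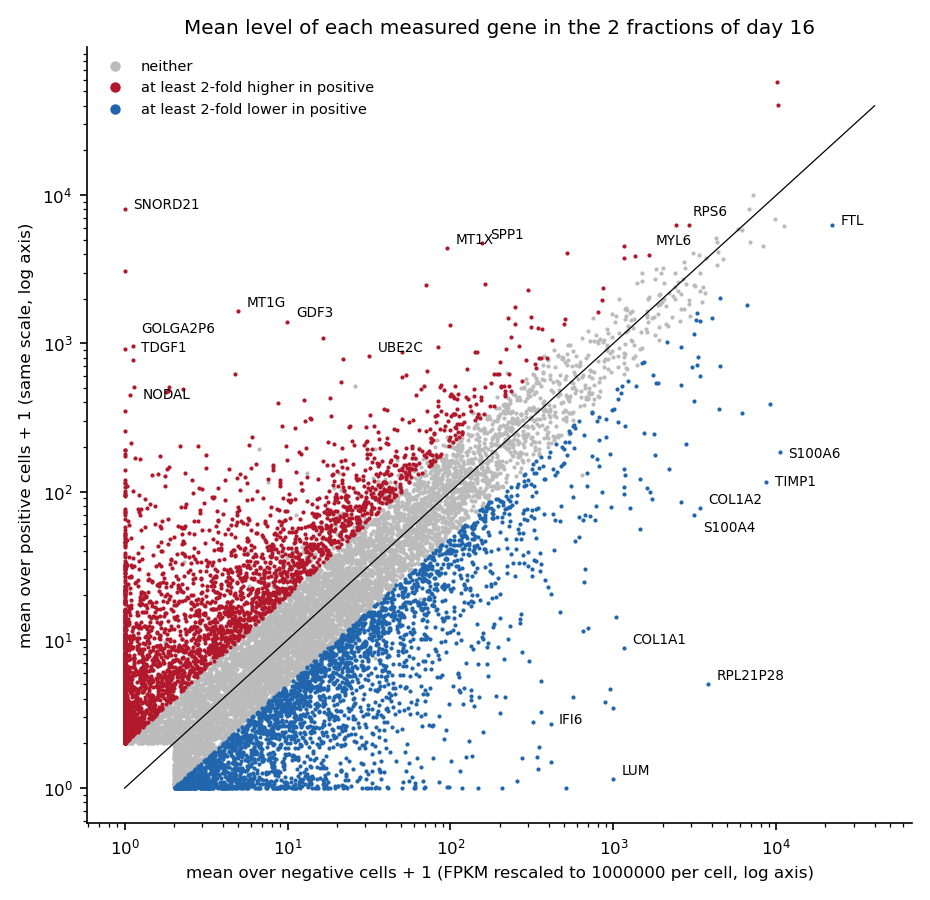
Each point is a measured gene, at its mean over 85 negative cells (horizontal axis) and over 95 positive cells (vertical axis), both as rescaled FPKM plus 1 on log axes; colours mark the calls and the diagonal marks equal means. Nodal pathway genes and metallothioneins lie far above the diagonal, collagens, TIMP1 and S100 genes far below it, and RPS6 and MYL6 on it.

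Ligands and co-receptors of the Nodal branch of TGF-beta signalling were high in most positive cells and low or listed at 0 in most negative cells. NODAL itself, a morphogen that signals through SMAD2 and SMAD3, ranged from 0 over a median of 211 to 6922 in positive cells and from 0 over 0 to 8.08 in negative cells. It was detected in 87.4% of positive cells (78.97% to 93.3%) and 2.35% of negative cells (0.286% to 8.24%), and the positive cell was higher in 93.9% of pairs. TDGF1, the Nodal co-receptor Cripto, had medians of 319 and 0 with means of 770 and 0.127. GDF3, a ligand of the same family, had medians of 713 and 0, with a highest positive cell at 15494 and a highest negative cell at 359. The feedback inhibitors LEFTY1 and LEFTY2, closely similar neighbours between which reads may be split, differed in how they were held by negative cells. LEFTY1 was detected in 4.71% of negative cells, whereas LEFTY2 was detected in 36.5% of them and reached 4408 in 1. All 95 positive cells held LEFTY2 (1.86 over a median of 450.5 to 9771), so that the ranges of the fractions overlapped although 91.98% of pairs had the positive cell higher. FOXH1, the DNA-binding partner of the Nodal SMADs, had means of 23.6 and 0.731.

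The wider TGF-beta and BMP family did not move as 1 block. Of its 39 measured ligands, receptors and antagonists, 11 were called higher and 12 lower (median log2 ratio -0.18). The lower members with the highest levels were TGFBI, a matrix protein induced by TGF-beta (142 against 1153), FSTL1, a secreted follistatin-like protein (355 against 982, with a log2 ratio of -1.47 that was -0.94 on the FPKM as deposited), and GDF15, a stress-induced ligand (27.3 against 221). FGF ligands and receptors had 11 of 16 called higher and 2 lower, with a median of 1.49. By the difference of mean log2(value + 1) the FGF median was 0.43. Of the 16, 5 were listed at 0 in negative cells and could only be called higher. FGF13 had means of 46.2 and 0.0306, FGF19 of 19.7 and 0.0720, and the receptor FGFR2 of 16.3 and 0.337, while the receptor FGFR1 was higher in negative cells (30.01 against 73.7). Each of the first 3 was found in 40% to 49.5% of positive cells, not in all. Among 29 Wnt pathway genes, 9 were higher and 11 lower. The Wnt antagonist SFRP2 was detected in 84.2% of positive and 1.18% of negative cells (means 202 and 1.81). The ligands WNT2 (0.0349 against 59.3) and WNT5A (12.7 against 45.8) and DKK3, of the Dickkopf family, (29.1 against 316) were lower. SEMA6A, a membrane semaphorin, was detected in 97.9% of positive and 4.71% of negative cells, with 99.2% of pairs higher in the positive cell, although 11 of 24 semaphorin and plexin genes were lower and 6 higher.

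**Figure D2:**
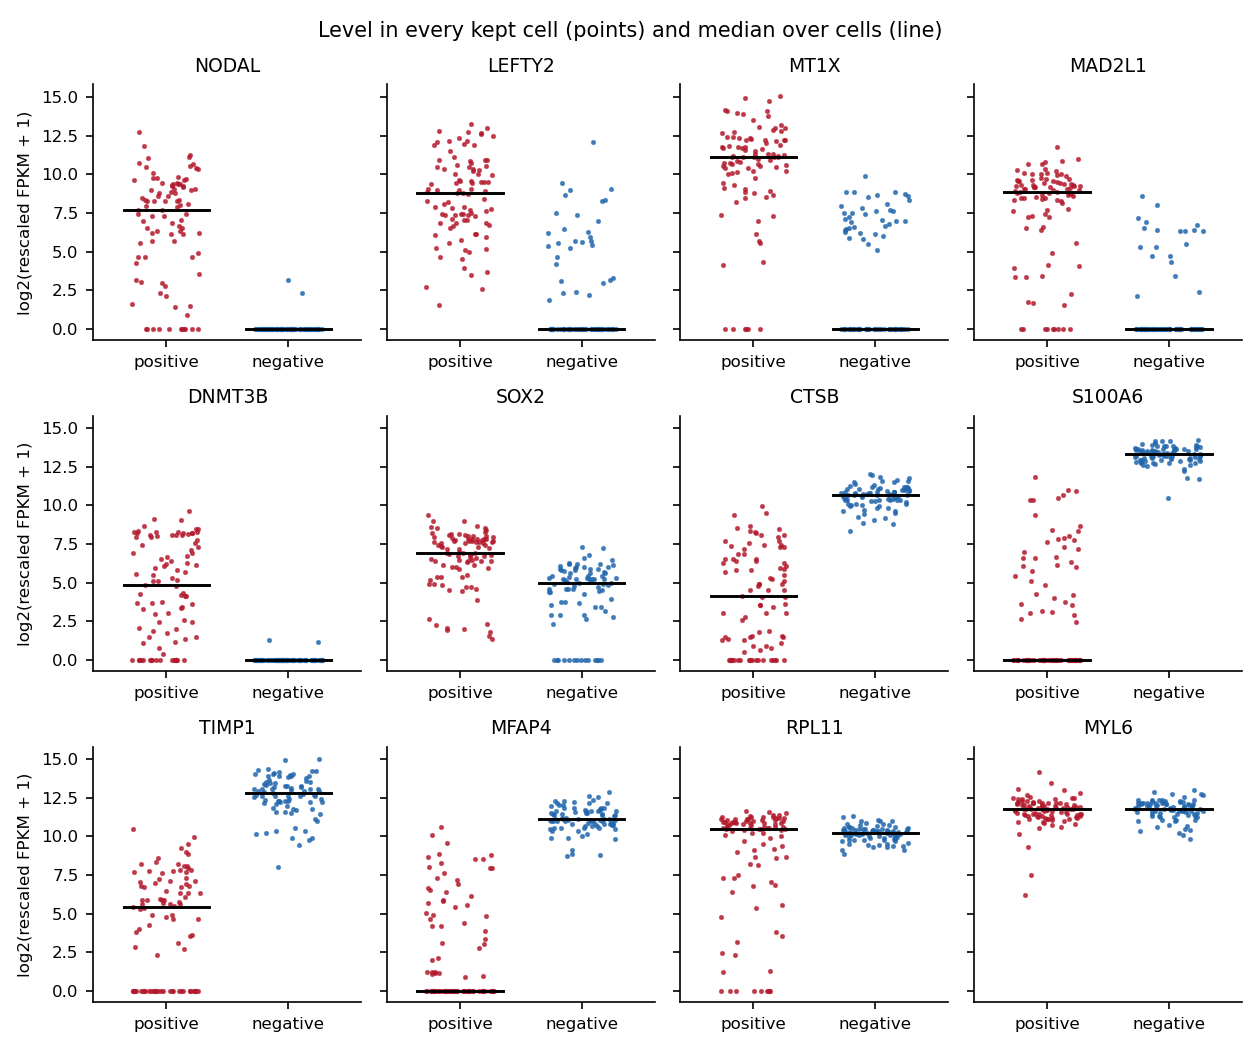
Each panel shows 1 gene as log2(rescaled FPKM + 1), with 1 point per kept cell (95 positive, 85 negative) and a line at the median over cells. NODAL and DNMT3B are near 0 in negative cells, LEFTY2 and SOX2 overlap, S100A6 and TIMP1 are high in every negative cell, and RPL11 and MYL6 have medians close together with a wider spread in positive cells.

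Metallothioneins, small cysteine-rich proteins that bind zinc and copper and buffer metals and oxidants, had the highest median log2 ratio of means of the 120 gene lists; by the difference of mean log2(value + 1) their median of 2.97 came after that of the pluripotency list (3.32). Of 12 listed genes 9 were measured; 8 were called higher and 0 lower, with a median log2 ratio of 5.07. MT1X ranged from 0 over a median of 2212 to 34409 in positive cells and from 0 over 0 to 971 in negative cells (means 4394 and 94.1). MT1G had means of 1647 and 3.96, and MT1H, listed at 0 in all negative cells, had a mean of 921 and was detected in 66.3% of positive cells. A count of 0 of 85 cells allows a share of cells with a value of up to 3.53% (3 cells of 85, counting error only), and with depth unknown it sets no limit on the cells that express the gene. MT2A was the 1 member not called, with means of 544 and 816. Family members are near-identical copies, so the split of reads between them is uncertain. Their summed share needs no such split: it was 0.540% of a positive cell's total (median, range 0.00251% to 5.67%) and 0.0685% of a negative cell's (range 0 to 0.564%), and 46 positive cells exceeded every negative cell. The 32 positive cells under 4000 genes had a mean MT1X of 7687 and the other 63 of 2721.
MT1 genes are switched on by the metal-sensing factor MTF1 through metal response elements, and the promoter of MT1X is shown for them (RefSeq, GRCh38.p14, chr16:56682220-56682519, plus strand, 250 bases before to 50 after the annotated start). Capitals mark matches to the core TGCACNC or TGCGCNC on either strand, of which it holds 4. At least 1 is held by 38.8% of 10371 promoters of measured protein-coding genes and 29.3% of all 27305 promoters of this length.
MT1X: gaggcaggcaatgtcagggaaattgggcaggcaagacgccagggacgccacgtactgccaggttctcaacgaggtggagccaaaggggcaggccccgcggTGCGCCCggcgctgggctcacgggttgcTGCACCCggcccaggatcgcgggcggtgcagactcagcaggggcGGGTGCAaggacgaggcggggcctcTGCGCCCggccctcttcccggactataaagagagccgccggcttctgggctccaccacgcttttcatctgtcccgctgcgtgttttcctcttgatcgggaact

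Genes of DNA replication and mitosis were mostly called higher in positive cells. Of 45 replication licensing and fork genes, 33 were called higher and 1 lower (median 2.44), and of 42 centromere and kinetochore genes 31 were higher and 2 lower (median 2.75). Homologous recombination and Fanconi genes, which repair broken and cross-linked DNA, had 20 of 27 higher and 0 lower (median 2.41). Condensin and cohesin genes had 13 of 21 higher and 0 lower (median 1.29), and kinesins, the motors of the spindle and of transport, had 17 of 33 higher and 2 lower (median 1.33). Mismatch and base excision repair had 5 of 20 higher, or 25% against 24.8% of all measured genes, and 0 lower (median 0.40). Counts in cells with 4000 or more genes were close, for example 35 of 45 higher for replication.

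Levels in single cells showed 2 forms of this difference. PCNA, the sliding clamp of DNA polymerase, was detected in 88.4% of positive and 80% of negative cells, with a median of 354 against 142 and ranges of 0 to 2721 and 0 to 493. MCM3, a subunit of the replicative helicase, was found in 90.5% and 43.5% of cells (means 219 and 23.9), and GMNN, the licensing inhibitor geminin, in 74.7% and 44.7% (means 262 and 43.8). Mitotic genes were missing from most negative cells. MAD2L1, a spindle checkpoint protein, ranged from 0 over 472 to 3502 in positive cells and was detected in 23.5% of negative cells (15.004% to 33.97%). CDK1, the mitotic kinase, was detected in 89.5% and 18.8% of cells, and its cyclins CCNB1 and CCNB2 in 91.6% against 30.6% and 88.4% against 8.24%. UBE2C, which loads ubiquitin for the anaphase-promoting complex, was in 87.4% and 7.06% of cells, and TOP2A, the topoisomerase of dividing cells, in 91.6% and 7.06%. RAD51AP1, a recombination factor, was listed at 0 in every negative cell and had a mean of 56.8 in positive cells. The negative cells that did hold mitotic genes could hold them at high levels: the highest UBE2C value was 2270 there and 9240 in positive cells. Positive cells under 4000 genes had a mean CDK1 of 836.5, and the other positive cells of 219.8, against 17.3 in negative cells.

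Promoters of these genes are known for E2F sites, which time S phase genes, and for the CHR element with CCAAT boxes, through which the DREAM and MMB complexes time mitotic genes. In 39 of the 45 replication genes with a RefSeq promoter, 43.6% held TTTCCCGC or TTTGGCGC on either strand, against 3.69% of 10371 promoters of measured protein-coding genes and 2.31% of all promoters. The CHR (TTTGAA or TTCGAA, either strand) was in 39.3% of 28 kinesin and 47.1% of 17 condensin and cohesin promoters, against 11.6% and 16.6%. Cyclins and cyclin-dependent kinases, a list that includes CDK1, had it in 13.6% of 22 promoters. Homologous recombination and Fanconi genes had it in 8.33% of 24, and replication genes in 2.56% of 39. CCAAT boxes were in 46.4% of kinesin, 41.2% of condensin and cohesin and 58.97% of replication promoters, against 36.7% and 35.7%. They were in 27.3% of cyclin and kinase and 33.3% of homologous recombination promoters. These are features of the lists and not of the calls. The kinetochore list had promoters for 78.6% of its genes, too few for such a share. The promoter of PCNA is shown with its E2F match, and those of CDK1 and KIF22, a chromosome-arm kinesin with means of 133 and 35.96, with their CHR and CCAAT matches in capitals (RefSeq, GRCh38.p14, chr20:5126573-5126872 minus strand, chr10:60778081-60778380 plus strand and chr16:29790501-29790800 plus strand).
PCNA: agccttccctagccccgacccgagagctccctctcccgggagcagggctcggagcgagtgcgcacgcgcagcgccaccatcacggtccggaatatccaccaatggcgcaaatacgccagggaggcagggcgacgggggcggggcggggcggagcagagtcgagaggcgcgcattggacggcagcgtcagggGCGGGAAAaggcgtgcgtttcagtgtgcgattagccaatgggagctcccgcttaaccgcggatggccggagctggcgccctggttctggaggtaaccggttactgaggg
CDK1: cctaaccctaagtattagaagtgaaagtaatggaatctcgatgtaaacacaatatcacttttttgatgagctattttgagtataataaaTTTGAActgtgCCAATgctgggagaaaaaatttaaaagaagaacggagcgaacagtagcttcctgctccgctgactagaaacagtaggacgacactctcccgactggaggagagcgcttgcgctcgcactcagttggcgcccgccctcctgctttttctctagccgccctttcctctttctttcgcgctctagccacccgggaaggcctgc
KIF22: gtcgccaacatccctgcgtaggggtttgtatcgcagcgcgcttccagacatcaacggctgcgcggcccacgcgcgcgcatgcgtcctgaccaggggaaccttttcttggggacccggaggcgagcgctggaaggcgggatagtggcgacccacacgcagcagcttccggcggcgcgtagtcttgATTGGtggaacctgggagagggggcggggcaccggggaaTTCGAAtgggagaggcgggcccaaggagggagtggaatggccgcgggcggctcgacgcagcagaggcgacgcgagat

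Regulators of the cycle moved in both directions. CDK inhibitors were mostly lower in positive cells, 5 of 8 with 2 higher and a median of -2.41. CDKN1A, the p53 target p21, had medians of 0 and 231 (means 25.9 and 313). CDKN2A, which encodes p16 and ARF, was detected in 23.2% and 90.6% of cells, and its neighbour CDKN2B in 4.21% and 90.6%. CDKN3, a phosphatase of dividing cells, was on the positive side (122.6 against 25.5). The E2F and MYB list had 8 of 16 higher and 3 lower. MYBL2, of the mitotic MMB complex, had means of 47.3 and 0.899, and FOXM1, its partner factor, of 23.2 and 1.63, while the pocket proteins RB1 (3.46 against 9.64) and RBL2 (3.14 against 12.1) were lower.

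Histone and HMG genes were mostly called higher as well. Histone genes had 43 of 69 called higher and 4 lower (median 1.44), and 17 of the 69 were listed at 0 in all negative cells. By the difference of mean log2(value + 1) the histone median was 0.44. HIST1H4C, a replication-dependent H4 gene, ranged from 11.9 over 1910 to 20790 in positive cells and from 0 over 465 to 2260 in negative cells. H2AFZ, the variant H2A.Z, had means of 4512 and 1168. The summed histone share of a cell's total was 0.935% (median, 0.0144% to 2.83%) against 0.291% (0.140% to 0.590%), and 68 positive cells lay above all negative cells while 5 lay below all of them. The libraries hold polyadenylated RNA, and most replication-dependent histone transcripts lack a poly(A) tail, so these values cover only the part that was captured. In positive cells under 4000 genes the mean HIST1H4C was 1150, in the others 5546. HMG proteins, small architectural chromatin proteins, had 8 of 10 higher and 0 lower, with HMGB2 at 592 against 49.2, HMGN3 at 773 against 289 and HMGN1 at 456 against 214.

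Some chromatin enzymes and remodellers differed widely between the fractions, more than their lists did. Of all measured genes, 24.8% were called higher and 21.4% lower. DNMT3B, a de novo DNA methyltransferase, ranged from 0 over 27.7 to 797 in positive cells and stayed at or under 1.45 in negative cells (78.9% and 2.35% of cells). DNMT3A had means of 32.1 and 2.27, and 7 of 17 methylation genes were higher (41.2%) with 2 lower (11.8%). By the difference of mean log2(value + 1) the methylation median was -0.03. HELLS, a remodeller needed for DNA methylation, was detected in 94.7% and 7.06% of cells (means 108 and 0.777). SWI/SNF, CHD and ISWI remodellers as a whole were even, 10 of 45 higher (22.2%) and 9 lower (20%). Of 27 Polycomb genes 9 were higher (33.3%) and 5 lower (18.5%). JARID2, an accessory subunit of the H3K27 methyltransferase complex, was at 87.3 against 9.52 and PHF19, another accessory subunit, at 89.1 against 19.2. TERF1, a telomere-binding protein, had means of 145 and 20.7, though 3 of 13 telomerase and shelterin genes were higher and 3 lower (23.1% each).

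Transcription factors leaned to the positive side only through zinc finger genes: of 747 measured genes in the transcription factor lists, 231 were called higher and 120 lower. Zinc finger genes named ZNF had 151 of 445 higher (33.9%) and 37 lower (8.31%), with a median of 0.50. Over all measured genes these shares were 24.8% and 21.4%. The other transcription factors were in sum called higher and lower about equally often, while single lists leaned either way. HOX genes had 11 of 24 higher and 4 lower, and bHLH factors and ID proteins 6 of 30 higher and 12 lower. Among the factors called higher and not tied to the table pattern described further on were ZSCAN10, an embryonic stem cell factor, in 64.2% and 1.18% of cells, HEY2, a Notch-responsive repressor, in 57.9% and 1.18%, and ZIC2, listed at 0 in negative cells and detected in 62.1% of positive cells. SOX4 had means of 261 and 89.99. On the negative side stood immediate-early and mesenchymal factors. BHLHE40 was detected in 28.4% of positive and 98.8% of negative cells (means 11.8 and 183), JUNB in 33.7% and 92.9%, FOSB in 14.7% and 87.1%, and FOS in 70.5% and 94.1%. ZEB1 and SNAI2, repressors of epithelial genes, were detected in 17.9% against 94.1% and 7.37% against 80%, TWIST2 in 4.21% against 83.5%, and HES1, a Notch effector, in 49.5% against 96.5%. Of 30 AP-1, ATF and CEBP genes 11 were lower and 3 higher.

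RNA processing and nuclear transport lists had more members called higher than lower, with about as many or more called neither way. Splicing SR and SNRP proteins had 22 of 62 higher and 4 lower (median 0.69), hnRNP proteins 10 of 28 higher and 1 lower (median 0.82), and nucleoporins and importins 20 of 45 higher and 3 lower (median 0.87). SRSF3, a splicing factor detected in every kept cell, ranged from 10.1 over 602 to 8755 in positive and from 15.2 over 180 to 707 in negative cells. SNRPN, which shares a transcript with its neighbour SNURF, had means of 921 and 219. The splicing share of a cell's total was 1.28% (median) against 0.720%, and 74 positive cells lay above every negative cell. KPNA2, an importin, had means of 1348 and 249 and RANBP1, a cofactor of Ran, of 428 and 104.6. ESRP1, which sets epithelial splice choices, was listed at 0 in negative cells and detected in 43.2% of positive cells, where 1 cell gave 70.9% of its summed level, while MBNL1, which opposes embryonic splicing, was in 94.1% of negative and 27.4% of positive cells. LIN28A, an RNA-binding inhibitor of let-7 maturation, was in 92.6% of positive and 0 negative cells. L1TD1, an RNA-binding protein of embryonic cells, was in 93.7% and 60%, so most negative cells held it, at a lower level (medians 160 and 8.90). NCL, the nucleolar protein nucleolin, had means of 958 and 264, but its log2 ratio of 1.86 was 0.91 in cells with 4000 or more genes. Ribosome biogenesis as a list had 12 of 36 genes higher and 3 lower.

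Lists of nucleotide and sterol synthesis had more members called higher than lower. Purine and pyrimidine synthesis had 13 of 26 genes higher and 1 lower (median 0.74), with PAICS, a purine enzyme, at 493 against 64.7, although the summed share of the list was close (median 0.529% and 0.461% of a cell's total). Cholesterol synthesis had 8 of 23 higher and 2 lower (median 0.83). GLDC, which cleaves glycine for one-carbon units, was detected in 64.2% and 2.35% of cells, and TYMS, which makes thymidylate, in 65.3% and 22.4%. IDH1, the cytosolic isocitrate dehydrogenase, had means of 876 and 140, although 3 of 25 genes of the tricarboxylic acid cycle list were higher and 1 lower. SLC2A3, the glucose transporter GLUT3, had means of 195 and 20.5, while glycolysis and lactate genes had 4 of 24 higher and 5 lower. The chaperones HSPD1 (1283 against 310) and HSP90AB1 (3870 against 1361) and the peroxidase PRDX1 (6305 against 2895) were higher; PRDX1 fell to a log2 ratio of 0.91 in cells with 4000 or more genes. Chaperonin and heat shock proteins as a list were near even in calls, 9 of 43 higher and 7 lower. Their summed share of a cell's total was larger in positive cells (medians 1.67% and 0.921%, higher in 90.6% of pairs).

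Cell junction genes differed in both directions. Claudins and tight junction genes had 12 of 17 higher and 2 lower (median 1.83), led by F11R, a junctional adhesion molecule in 91.6% of positive and 37.6% of negative cells. By the difference of mean log2(value + 1) the median of this list was 0.67. Of the 17, 3 were listed at 0 in negative cells and could only be called higher. Cadherins and desmosome genes had 9 of 15 higher and 3 lower. Their median of 1.11 was -0.07 when the top and bottom 5% of cells were left out. Of the 15, 4 were likewise listed at 0 in negative cells. CDH1, epithelial cadherin, was listed at 0 in negative cells and detected in 66.3% of positive cells, and CDH3, placental cadherin, in 52.6% against 1.18%. CDH11, a cadherin of mesenchyme, was in all negative cells (37.4 over a median of 255 to 621) and in 23.2% of positive cells. CDH2, neural cadherin, was on the positive side (88.7 against 33.3). GJA1, the gap junction protein connexin 43, was detected in nearly all cells, with a median of 980 against 195, and 54 positive cells had a larger gap junction share of their total than any negative cell. KRT8, a simple epithelial keratin, had means of 871 and 49.7, and KRT17, a keratin of stratified epithelium, of 1.07 and 129.

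Some single genes were high although the lists that hold them were split or leaned the other way; serpins, for example, had 5 of 15 higher and 7 lower. SPP1, the secreted phosphoprotein osteopontin, was detected in all positive cells, from 50.4 over 3406 to 25463, and in 55.3% of negative cells with a median of 4.41. SERPINB9, an inhibitor of granzyme B, was in 97.9% and 15.3% of cells (means 203 and 1.19), and IFITM1, a membrane protein known as an interferon target and a pluripotent cell marker, had means of 3948 and 1643. TIMP4, an inhibitor of matrix metalloproteinases, had means of 143 and 2.18. MEST, an imprinted gene, was in 54.7% and 3.53% of cells, while the imprinted H19 (128 against 1174) and its neighbour IGF2 (3.20 against 132) were lower.

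**Figure D3:**
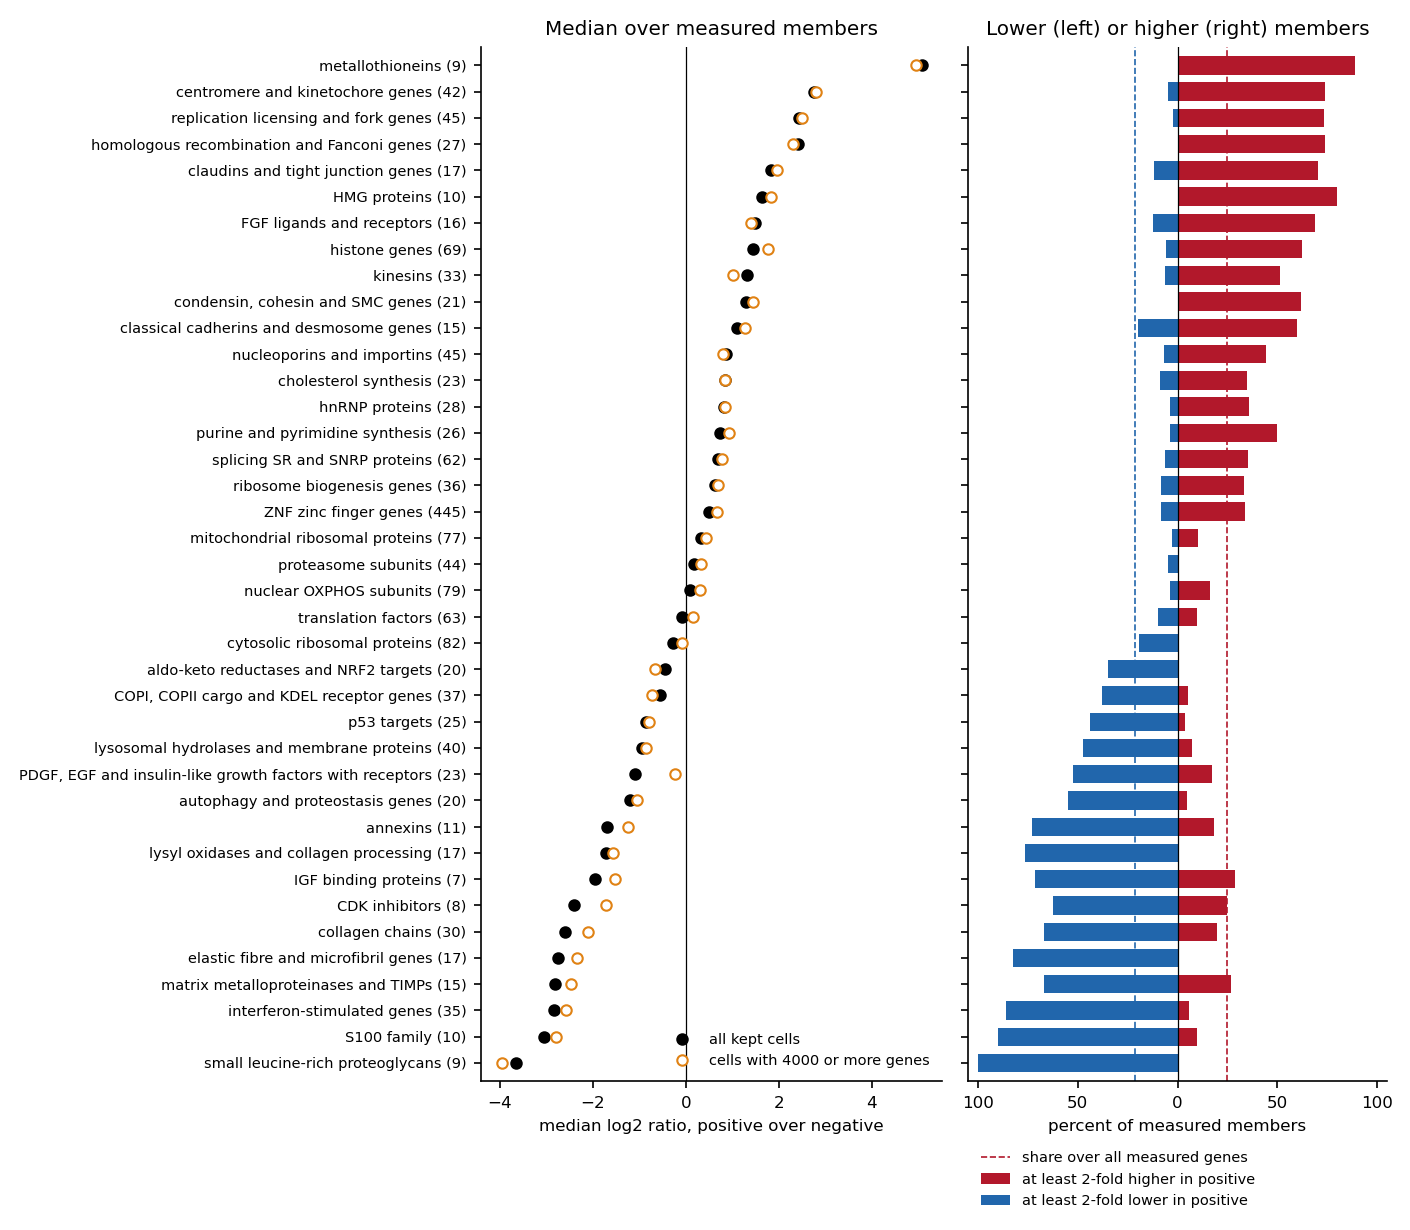
For a selection of the gene lists, with the number of measured members in brackets, the left panel gives the median log2 ratio of positive over negative in all kept cells (filled) and in cells with 4000 or more genes (open), and the right panel the percent of members called higher (red) or lower (blue), with dashed lines at 24.8% and 21.4% over all measured genes. Metallothioneins (5.07) are at one end and small leucine-rich proteoglycans (-3.66) at the other, with proteasome and OXPHOS genes near 0.

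The negative fraction held the extracellular matrix programme at levels that positive cells rarely reached. Of 30 collagen genes 20 were lower in positive cells and 6 higher (median -2.60), of 9 small leucine-rich proteoglycans all 9 were lower (median -3.66), of 17 elastic fibre genes 14 were lower and 0 higher (median -2.74), and of 17 lysyl oxidase and collagen processing genes 13 were lower and 0 higher (median -1.71). COL1A2 ranged from 250 over 3355 to 8246 in negative cells and from 0 over 2.61 to 1204 in positive cells. COL1A1 had means of 7.75 and 1162. COL3A1 was detected in 8.42% of positive cells and COL6A3 in 13.7%, and each was in all negative cells. LUM, the proteoglycan lumican, had a median of 880 in negative cells and was detected in 3.16% of positive cells, where it did not pass 7.28. MFAP4, a microfibril protein, ranged from 426 over 2190 to 7410 in negative cells and up to 1583 in positive cells. P4HA2, which hydroxylates collagen prolines, had means of 14.3 and 467. The collagen share of a cell's total was 0.789% (median, 0.219% to 1.90%) in negative and 0.0232% (0.000589% to 0.367%) in positive cells, and 93 of 95 positive cells lay below every negative cell. COL2A1, the cartilage collagen, was on the positive side (77.7 against 24.8).

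Matricellular proteins had 9 of 16 lower and 2 higher, yet their summed share of a cell's total was larger in positive cells (median 0.444% against 0.336%, higher in 62.1% of pairs). The list includes SPP1, described above. Among its lower members were SPARC at 1452 in negative and 121 in positive cells and FN1, fibronectin, at 847 in negative and 97.9 in positive cells. VCAN, versican, was higher in positive cells (302 against 141). Matrix metalloproteinases and TIMPs had 10 of 15 lower and 4 higher (median -2.81). TIMP1, their secreted inhibitor, ranged from 263 over 7274 to 33056 in negative cells, against 0 over 41.8 to 1424 in positive cells. TIMP3, the matrix-bound inhibitor, had means of 3.69 and 953, and the protease MMP2 of 45.2 and 578. IGF binding proteins, which hold insulin-like growth factors in the matrix, had 5 of 7 lower and 2 higher, with IGFBP6 at 28.8 against 667 and IGFBP5 at 12.8 against 267. PDGF, EGF and insulin-like growth factors with their receptors had 12 of 23 lower and 4 higher (median -1.09, but -0.24 in cells with 4000 or more genes), among them PDGFRB, which was detected in 92.9% of negative and 5.26% of positive cells.

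Calcium- and membrane-binding proteins of the cell cortex set the fractions apart almost cell by cell. Of 10 measured S100 genes 9 were lower and 1 higher (median -3.05). S100A6 ranged from 1409 over 10169 to 18943 in negative cells and from 0 over 0 to 3693 in positive cells, and the positive cell was higher in 0.0867% of pairs. S100A4 was detected in all negative and 11.6% of positive cells (means 68.2 in positive and 3135 in negative cells), and S100A11, detected in 96.8% of positive cells, had means of 1806 and 6609. The S100 share was 2.55% of a negative cell's total (median, 1.04% to 4.04%) and 0.188% of a positive cell's (0.00151% to 2.06%), so that the ranges met only through the highest positive cells. Annexins, which bind phospholipid with calcium and partner S100 proteins, had 8 of 11 lower and 2 higher (median -1.69). ANXA2 had a median of 337 against 4263 and ANXA1 of 0 against 1485. ANXA3 was on the positive side (186 against 65.6). GSN, the actin-severing protein gelsolin, had means of 98.1 and 1685, and TPM2, a tropomyosin, of 247 and 1544. LIM and PDLIM proteins of stress fibres had 7 of 16 lower and 0 higher.

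**Figure D4:**
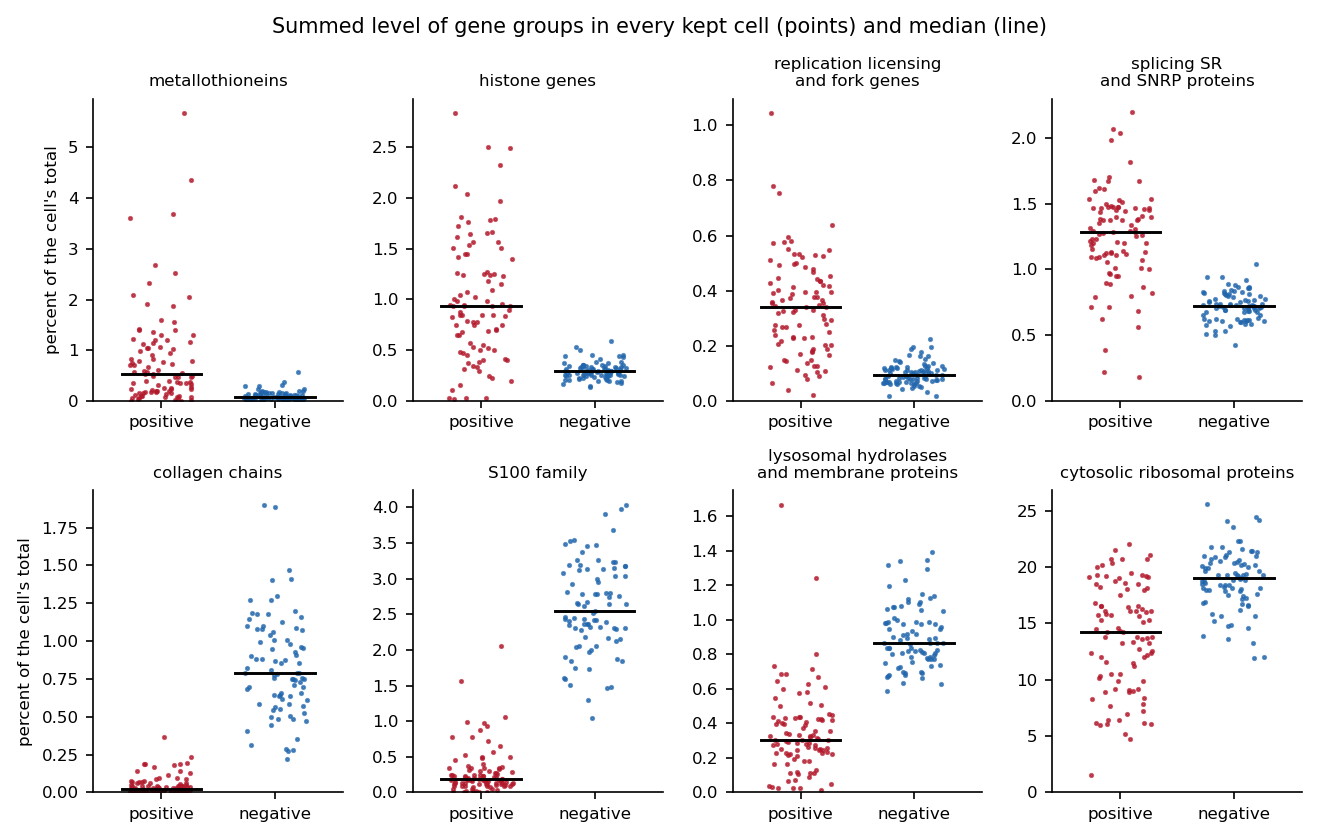
Each point is 1 kept cell and shows the summed level of a gene group as percent of the cell's total, with a line at the median. Histone, replication and splicing groups spread upward in positive cells from a narrow band in negative cells, while collagens and S100 genes lie near 0 in most positive cells, and cytosolic ribosomal proteins have medians of 14.2% (positive) and 19.02% (negative).

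Lysosomal, cargo transport and autophagy genes were more often called lower than all measured genes. ER folding genes were not, although their typical level per cell was also lower. Lysosomal genes had 19 of 40 lower and 3 higher (median -0.95). CTSB, the protease cathepsin B, ranged from 321 over 1642 to 4256 in negative cells and from 0 over 16.3 to 976 in positive cells, and CD63, a membrane protein of late endosomes, had means of 1421 and 3380, with a log2 ratio of -1.25 that was -0.61 on the FPKM as deposited. The cathepsin CTSC (335 against 118) and the lysosomal lipase LIPA (138 against 28.9) were higher. COPI and COPII cargo genes and KDEL receptors had 14 of 37 lower and 2 higher (median -0.55). KDELR3, which retrieves ER proteins from the Golgi, was in 94.1% of negative and 23.2% of positive cells (means 358 in negative and 4.28 in positive cells). ER folding and entry genes had 7 of 45 lower (15.6%, under the 21.4% of all measured genes) and 2 higher. By the difference of mean log2(value + 1) their median was nevertheless -1.47. That of lysosomal genes was -1.11, of cargo genes -2.02 and of autophagy genes -1.13. The summed ER folding share was higher in the positive cell in 29.3% of pairs. Autophagy genes had 11 of 20 lower and 1 higher (median -1.21), with SQSTM1, the cargo receptor p62, at 73.7 against 281. FTL, the ferritin light chain, ranged from 9141 over 20822 to 49207 in negative and from 79.9 over 5020 to 23412 in positive cells. TSPO, a protein of the outer mitochondrial membrane, was in 14.7% and 98.8% of cells, and ASS1, an enzyme of arginine synthesis, in 15.8% and 98.8%.

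Interferon-stimulated genes were lower one by one but not in sum. Of 35 measured members 30 were lower and 2 higher (median -2.83), with IFI27 at 322 in negative and 1.78 in positive cells and ISG15, a ubiquitin-like modifier, at 778 in negative and 79.2 in positive cells. ISG15 is 1 of 6 members of the list, described further on, for which table and fraction cannot be told apart; without these, 24 of 29 were lower and 2 higher (median -2.26). ISG15 ranged from 0 over 478 to 4534 in negative and from 0 over 12.9 to 882 in positive cells. The list's summed share of a cell's total was nevertheless near equal, 0.652% (median) in negative and 0.555% in positive cells; the list includes IFITM1, described above as higher in positive cells. Negative cells were not uniform, since IFI27 was detected in 65.9% of them. Of 51 interleukin and chemokine genes 27 were lower and 14 higher. CXCL1, a neutrophil-attracting chemokine, had means of 11.4 and 229, with 5428 in the highest negative cell and a median of 32.7 over negative cells. TNFRSF12A, the TWEAK receptor, was in all negative and 46.3% of positive cells. Of the 28 interferon list genes with a RefSeq promoter, 64.3% held the core of the interferon-stimulated response element (ISRE) on either strand, against 2.62% of promoters of measured protein-coding genes and 3.65% of all promoters. The promoter of ISG15 is shown with its 2 overlapping matches in capitals (RefSeq, GRCh38.p14, chr1:1013247-1013546, plus strand).
ISG15: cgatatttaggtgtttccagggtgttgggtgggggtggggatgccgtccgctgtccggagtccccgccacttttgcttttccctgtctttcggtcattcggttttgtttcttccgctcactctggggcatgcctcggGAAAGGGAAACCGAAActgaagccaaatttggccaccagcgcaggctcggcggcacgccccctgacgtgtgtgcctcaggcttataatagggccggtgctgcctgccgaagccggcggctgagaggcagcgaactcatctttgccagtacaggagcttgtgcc

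Genes of basic cell function were mostly called neither way. OXPHOS subunits encoded in the nucleus had 13 of 79 higher and 3 lower (median 0.09), proteasome subunits 0 of 44 higher and 2 lower (median 0.18), mitochondrial ribosomal proteins 8 of 77 higher and 2 lower (median 0.33), and translation factors 6 of 63 higher and 6 lower. By the difference of mean log2(value + 1) the OXPHOS median was -0.89 and the proteasome median -0.80. Cytosolic ribosomal proteins had 0 of 82 higher and 16 lower (median -0.27), or 9 of 75 lower without the 7 that follow the tables, as described below. The median of the 82 was -0.96 by the difference of mean log2(value + 1). Their summed share was 14.2% of a positive cell's total (median) and 19.02% of a negative cell's, those 7 included. The positive cell had the larger share in 18.7% of pairs. Among genes at 500 or more in both fractions, 13 of 213 were called higher and 24 lower. The closest pairs of means were those of PPIA, a prolyl isomerase (548 and 548), RPL11 (1232 and 1233) and ATP5I, an ATP synthase subunit (2197 and 2202). Equal means hid unequal cells: RPL11 ranged from 0 to 3220 in positive cells and from 473 to 2591 in negative cells, with means of 161.7 in the 32 positive cells under 4000 genes and of 1775 in the others, whereas PPIA was at 814.2 and 412.7.

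Some large ratios came from few cells. SNORD21, a small nucleolar RNA, had the highest mean of this kind, 8024, from 1 positive cell at 762277. SNAR-C3, a small NF90-associated RNA with near-identical copies, was in 27.4% of positive cells with a mean of 3077, and was listed at 0 in negative cells. C9orf135, a gene of a surface protein in pluripotent cells, was in 47.4% of positive and 0 negative cells with a mean of 179. In negative cells SNORA12 (4.71% of cells) and MIR671 (1.18%) were of this kind, and CXCL14, a chemokine, had a mean of 124 from 22.4% of cells, while it was detected in 18.9% of positive cells at a mean of 0.617.

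Markers of other cell types, in 10 lists, took little of a cell's total except for 1 list. All 5 measured mesendoderm markers of 13 were higher in positive cells, in a minority of them: CER1, a secreted Nodal and BMP antagonist, was in 14.7% of positive cells (0 in negative), with a highest cell at 2852 that gave 70.1% of the summed level, and MIXL1, a primitive streak factor, in 25.3% against 1.18%. Of the 5, 3 were listed at 0 in negative cells, so they were measured only through positive cells. Of 15 neural markers 7 were measured, 2 higher and 3 lower, with STMN2, a tubulin-binding neuronal protein, in 81.2% of negative and 6.32% of positive cells (means 200 in negative and 2.22 in positive cells). Trophoblast markers had 4 of 8 higher and 2 lower; HAND1, also a factor of the heart and extraembryonic mesoderm, was in 47.1% of negative and 10.5% of positive cells. Keratinocyte markers had 6 of 7 measured lower and 0 higher, or 4 of 5 lower without the 2 that follow the tables, as described below. Of the 15 in the list, 8 stayed unmeasured. Blood and immune markers had 4 of 5 lower, led by RUNX1 at 4.33 against 30.3. Endothelial markers had 2 of 7 higher and 3 lower, and muscle markers 2 of 7 higher and 2 lower. Of 10 adipocyte markers 3 were measured, and of 18 germ cell markers 3, and all of these were called higher. In negative cells 2 of the adipocyte and all 3 of the germ cell markers were listed at 0. Genes at 0 in negative cells were measured only through positive cells and could only be called higher, so their direction is no result. The summed share of each of these 9 lists was at most 0.323% of any cell's total. Bone and cartilage markers, which include SPP1, had 4 of 9 higher and 2 lower and took a median of 0.341% of a positive cell's total (up to 2.55%) and 0.0373% of a negative cell's (up to 0.429%).

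A set of genes followed the tables of the series and not the order of the conditions. In 56 genes the means of BJ, day 2 and positive cells were each at least 4-fold above those of day 8 and negative cells, and 55 of them were called higher here, including 20 of the 80 genes held by positive cells. GOLGA2P6, a golgin pseudogene, had a mean of 964 in positive and 0.120 in negative cells, ZNF628 of 473 and 0.854, ZBTB33 of 623 and 3.75, ZNF667 of 164 and 0.239, and FOXB2, listed at 0 in negative cells, of 71.7. In 23 other genes day 2 and negative cells were at least 4-fold above the other 3 groups, and all 23 were called lower: 7 encode ribosomal proteins, such as RPS27 (389 against 9186) and RPL7 (360 against 4449), 6 belong to the interferon list, such as IFI6 (1.69 against 411), and RPL21P28 is a pseudogene (4.01 against 3816). In RPS27 and RPL7 no positive cell reached any negative cell. Without both sets, 3425 genes were called higher and 2985 lower. The chip, run or annotation behind a table is not given in the sources used here, so for these genes table and fraction cannot be told apart.

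**Figure D5:**
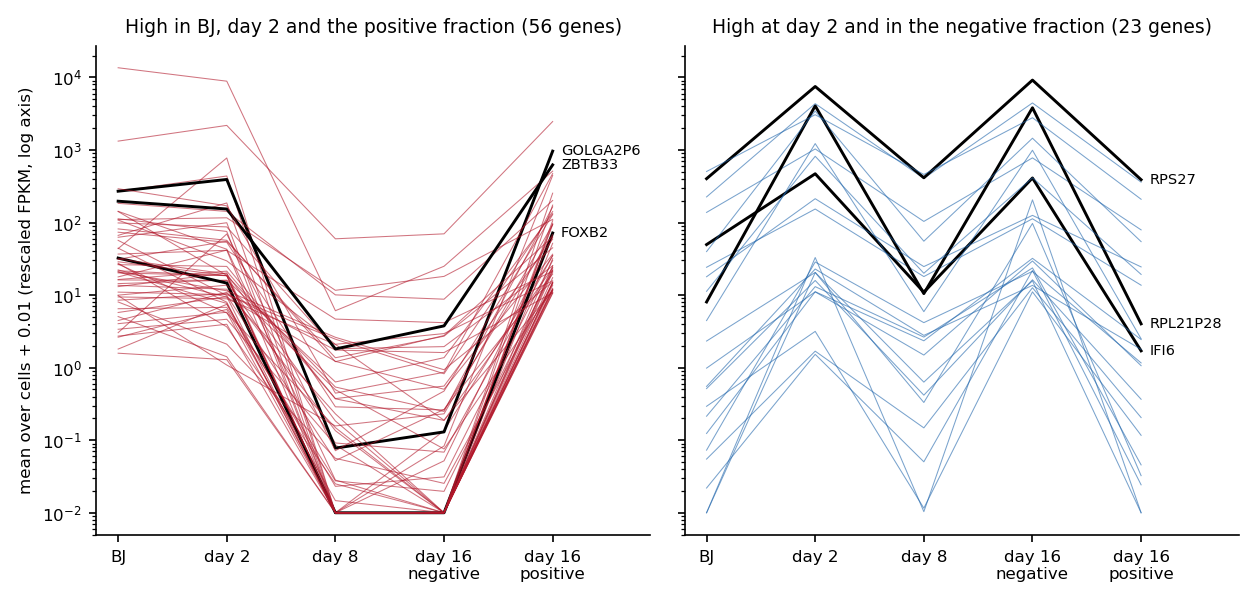
Lines join the mean of 1 gene over the kept cells of each table (rescaled FPKM + 0.01, log axis) for the 56 genes high in BJ, day 2 and the positive fraction (left) and the 23 genes high at day 2 and in the negative fraction (right). In each set the level goes down and up between neighbouring time points; RPS27 stands near 9186 in negative and 389 in positive cells.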

How the data were processed

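Single cells were captured on Fluidigm C1 chips with STRT scripts, and polyadenylated RNA was made into Nextera XT libraries, per the labels' protocols. The authors deposited FPKM, 1 table per group; per the submitters' processing notes they used STAR and Cuffnorm on hg19, versions and joint normalisation of the tables not being given in the sources used here. All columns were used. Each cell was rescaled to 1e+06 with Python 3.11.15, numpy 2.4.6, pandas 2.3.3 and scipy 1.17.1, and cells with 2000 genes at 1 or more were kept. Doublets cannot be called from FPKM; leaving out the 5% of cells with most genes was an alternative. Measured genes averaged 1 or more in either fraction, the pseudocount was 1, and the calculation was tested on simulated data. Named genes follow a rule: the 15 extremes by mean log2 difference, up to 3 and 2 called members per list by level, the 10 most equal genes, 5 few-cell genes per direction, 10 transcription factors per direction, delivered factors and PODXL; MT2A, RNR1 and RNR2 were added after their values were seen. Members and lists were chosen with earlier results of these data known. Promoters (RefSeq, GRCh38.p14) were matched by symbol for 10954 of 14060 measured genes. Each printed promoter was picked by level from called list members whose promoter holds the motif, so its match was fixed in advance. OCT4 is not reported, and neither are genes of the sex chromosomes used to infer sex.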

Additional observations from a re-analysis of the deposited data

How the results depend on the processing

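The count of genes higher in positive cells, 3480, became 1281 by the difference of mean log2(value + 1), 1982 with 5% of cells trimmed at each end, 1311 with a pseudocount of 10, 1822 with a mean of 10 or more and 1433 at 4-fold. The count lower, 3008, became 1226, 1846 and 1085 under the last 3; the smaller counts under a higher mean or fold follow from fewer genes passing, and otherwise the cause was not tested. Genes held by positive cells, 80, became 173 with cells of 4000 or more genes and 37 with detection at 10. Scaling moved the median of all genes from 0.06 to 0.18 both on FPKM as deposited (3714 higher, 2641 lower) and without mitochondrial and small RNA in the totals (3786 higher, 2797 lower). Of 120 gene lists, 38 had a median past 2-fold; 36 of these stayed past it in cells with 4000 or more genes, 35 on FPKM as deposited and 19 by the difference of mean log2. Of the lists past 2-fold, cadherins and desmosome genes alone changed sign, from 1.11 to -0.068 with trimmed means. Over all lists, the sign changed in 26 with trimmed means, 19 by the difference of mean log2, 14 in cells with 4000 or more genes and 9 on FPKM as deposited. Of 158 named genes past 2-fold, 155 stayed so in cells with 4000 or more genes and 147 by the difference of mean log2, and none of these 158 changed sign under any alternative run. Named genes under 2-fold did: RPS6 went from 0.03 to -0.38 and MYL6 from 0.03 to -0.08 by the difference of mean log2, KLF4 from -0.43 to 0.09 and RPL11 from -0.0018 to 0.51 in cells with 4000 or more genes, and PPIA from -0.00094 to 0.36 on FPKM as deposited. Leaving out the 5 cells whose FPKM sum to over 2000000, the genes that follow the tables, or genes carried by 1 cell were alternatives chosen after seeing the data; the last left 2605 higher and 2777 lower. No paired analysis was possible because each fraction is 1 sample and cell numbers in the labels only name cells. Leaving out a replicate was not possible either. With depth unknown, a gene listed at 0 may be below detection.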
